A study of Mus musculus with 9 samples.

Results

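The cytosolic ribosomal protein genes were taken from the expression table by their symbols, as all genes named *Rpl* or *Rps* with a number, with *Rplp0*, *Rplp1*, *Rplp2* and *Rpsa*, and without pseudogene symbols and the ribosomal S6 kinases. The rule found 86 genes among 24597 symbols, of which 51 belong to the large and 35 to the small subunit. They comprise 77 canonical genes and 9 paralogues or copies (*Rpl3l*, *Rpl6l*, *Rpl7l1*, *Rpl22l1*, *Rpl39l*, *Rps27l*, *Rps4l*, *Rps3a2* and *Rps3a3*). RNA sequencing had been performed on hearts of mouse embryos at E18.5 that were wild type, heterozygous (*Ctcf* +/R567W) or homozygous (*Ctcf* R567W/R567W) for a CTCF-R567W substitution, with 3 libraries per genotype. CTCF shapes chromatin loops and domains through its DNA-binding zinc fingers, and the substitution had been introduced into the germline by CRISPR/Cas9. It is therefore present in every cell of the mutant embryos. Each heart was collected on its own, but the sources used here do not say which embryos shared a litter, so p-values measure only the spread between these hearts.

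Each cytosolic ribosome is built from a small subunit, which reads the mRNA, and a large subunit, which joins amino acids. With few exceptions, 1 copy of each ribosomal protein enters each subunit, and cells adjust the synthesis of these proteins together. Many of their mRNAs begin with a C followed by a run of pyrimidines, the terminal oligopyrimidine (TOP) tract, through which mTOR signalling controls their translation. Late-gestation heart muscle grows rapidly and depends on a large supply of ribosomes.

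The sequences around the transcription start of 9 members, chosen because they are described below, show how far the start sites share a TOP-like tract. Each window holds 15 bases before and 15 bases from the RefSeq start (build GRCm38.p6), read 5′ to 3′ on the gene's strand, and capitals mark the longest run that opens with C and continues with C or T.
Rpl38, chr11:114668565-114668594, plus strand: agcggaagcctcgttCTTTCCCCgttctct
Rpl41, chr10:128549154-128549183, minus strand: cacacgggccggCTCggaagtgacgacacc
Rpl37, chr15:5116598-5116627, plus strand: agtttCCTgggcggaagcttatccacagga
Rpl23, chr11:97782425-97782454, minus strand: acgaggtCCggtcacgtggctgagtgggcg
Rps9, chr7:3704026-3704055, plus strand: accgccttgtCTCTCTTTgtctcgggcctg
Rpl10, chrX:74270801-74270830, plus strand: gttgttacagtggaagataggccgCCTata
Rps4x, chrX:102189377-102189406, minus strand: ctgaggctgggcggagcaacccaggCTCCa
Rpl13a, chr7:45128731-45128760, minus strand: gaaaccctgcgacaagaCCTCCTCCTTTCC
Rps24, chr14:24490663-24490692, plus strand: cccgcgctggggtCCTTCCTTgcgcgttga
The *Rpl38* run is 8 bases long and opens at the first transcribed base. Runs of at least 7 bases anywhere in the window were present in 29 of the 57 canonical genes with a RefSeq promoter (50.9%), against 16.4% of the promoters of 27025 genes. Some of these runs, such as that of *Rpl13*, end before the start, so the share is not a count of TOP tracts. In the 300 bases from 250 before to 50 after the start, searched on both strands, CCGGAAG, the core of ETS-factor sites, stood in 42.1% of the canonical genes and 9.93% of all genes. GGGCGG, the core of SP-factor sites, stood in 61.4% against 38.2%, AAGATGG, a YY1 core, in 15.8% against 7.28%, and TATAAA in 10.5% against 15.7%. These are matches of letters, and no binding was measured at them.

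Several libraries differed in their summed markers of cell types and in sex-linked transcripts, and these sums were not tested against genotype. Cardiomyocyte markers, 12 of 12 of which were in the table, summed to 34027 TPM in homozygous replicate 3 and to 42320 TPM in homozygous replicate 2. In the other 7 libraries they summed to between 44028 and 49454 TPM, with homozygous replicate 1 at 47223 TPM. Homozygous replicate 3 also held 781 TPM of 15 thymocyte markers, against 3.27 to 5.88 TPM elsewhere. The 12 airway and lung markers summed to 2629 TPM in wild-type replicate 1 and to 1109 TPM in heterozygous replicate 1, against 2.19 to 52.9 TPM in the other 7. The 15 liver markers reached 4168 TPM in heterozygous replicate 1 and at most 171 TPM elsewhere. Erythroid markers, 11 of 12 of them in the table, ranged from 2858 to 15554 TPM. *Xist* was found in wild-type replicate 1, in all 3 heterozygous libraries and in homozygous replicate 1, while the other 4 libraries carried Y-linked transcripts. The part of these differences in the results below was examined only by alternative settings. These left libraries out, took *Xist* as a covariate, or left haemoglobin and mitochondrially encoded genes out of the total. All 3 heterozygous libraries carried *Xist* while the other genotypes were mixed, so sex and genotype are partly confounded in comparisons with heterozygous hearts. *Ctcf* itself gave 27.0, 28.95 and 34.3 TPM for the wild-type hearts, 33.8, 33.2 and 38.7 for the heterozygotes and 38.9, 41.4 and 50.2 for the homozygotes (limma adjusted p = 0.107 for homozygous against wild type). A substitution need not alter the transcript, so this level does not check the labels.

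Ribosomal protein mRNAs were among the abundant transcripts of the hearts. TPM corrects for the transcript length that an annotation assigns. As the annotation used is not given, levels of different genes can be set side by side only roughly. Mean levels of the 77 canonical genes ran from 107 TPM for *Rps20* to 2237 TPM for *Rpl13a*, a span of 20.8 times, with a median of 790 TPM. The median was 692 TPM over 46 canonical genes of the large subunit and 973 TPM over 31 of the small subunit. The 10 most abundant members held 28.1% of the members' summed TPM. *Rpl13a*, a large-subunit gene whose introns host small nucleolar RNAs, led with 2414, 2060 and 2072 TPM for the wild-type hearts, 2017, 2162 and 2216 for the heterozygotes and 2259, 2373 and 2557 for the homozygotes. *Rps24*, a small-subunit gene mutated in Diamond-Blackfan anaemia, followed with a mean of 2219 TPM and *Rplp1*, a protein of the large subunit's stalk, with 2184 TPM. Their ranges overlapped over the 9 libraries, so the order at the top was within the spread between libraries. The lowest tested members, with a mean of at least 1 TPM, were a paralogue and 2 copies. *Rps3a2* averaged 4.08 TPM, *Rpl3l* 2.52 TPM and *Rpl6l* 1.004 TPM, while *Rps3a3* and *Rpl39l* stayed below the limit and were not tested. The reads of many members can be shared with other loci. Among canonical genes, the share of 31-base words also present in transcripts of other genes ran from 1.05% to 94.1%, with a median of 28.3%, and *Rpl36*, *Rpl35*, *Rpl23a*, *Rps3a1* and *Rplp1* exceeded 75%, so their levels are uncertain.

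The members together took 7.39%, 6.52% and 6.48% of the TPM in wild-type hearts, 6.999%, 6.41% and 6.62% in heterozygous hearts and 7.09%, 7.26% and 7.64% in homozygous hearts. The means were 6.80% ± 0.516, 6.68% ± 0.300 and 7.33% ± 0.285 (SD, n = 3 each). All 3 homozygous values lay above the heterozygous ones, but wild-type replicate 1 exceeded 2 of the 3 homozygous libraries, so homozygous and wild-type values overlapped. When mitochondrially encoded and haemoglobin genes were left out of the total, heterozygous replicate 1 at 9.32% exceeded homozygous replicate 1 at 9.19%, so those groups overlapped too. Without wild-type replicate 1 the wild-type mean was 6.50%, and without homozygous replicate 3 the homozygous mean was 7.17%. As bulk hearts were sequenced, a different mixture of cells and a different amount of these mRNAs per cell cannot be told apart. The ratio of summed large-subunit to small-subunit TPM was 1.16 ± 0.0229, 1.18 ± 0.0203 and 1.14 ± 0.0289 (SD, n = 3 each) in wild-type, heterozygous and homozygous hearts, with values from 1.10 to 1.204 over all libraries.

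**Figure D1:**
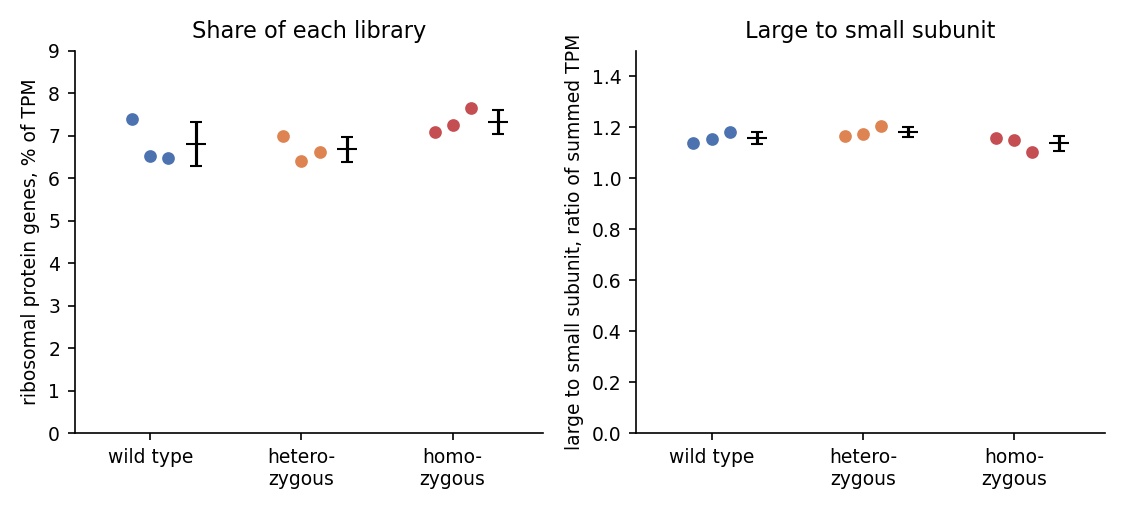
Share of ribosomal protein genes in each library's TPM, in percent (left), and the ratio of summed large-subunit to small-subunit TPM (right), by genotype. Points are libraries and bars the mean ± SD of 3; the homozygous shares of 7.09% to 7.64% lie above the heterozygous shares, and wild-type replicate 1 at 7.39% lies among them.

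Homozygous hearts were compared with wild-type hearts to ask whether the mutation altered these transcripts during heart development. No ribosomal protein gene passed the test: 0 of the 84 tested members had a limma adjusted p under 0.05, where 0.336% of all 13682 tested genes did. The lowest adjusted p of a member was 0.110. The count depended on whether libraries were weighted by how far they scatter from the fit. With limma's default library weights, the planned form, 46 members passed (40 higher and 6 lower in homozygous hearts), but the estimation stopped with a convergence warning, and 8755 of all 13682 genes passed with them. With gene-by-gene weights, a setting added after those counts had been seen, 18 members passed (15 higher and 3 lower), as did 5068 of all genes. Both sets of weights counted homozygous replicate 3 and wild-type replicate 3 least, at 0.199 and 0.265 by default and 0.258 and 0.356 gene by gene. The default counted wild-type replicate 2 most, at 8.54 against 0.516 for wild-type replicate 1, so its wild-type values rest mostly on 1 heart. Homozygous replicate 1 followed at 3.48. Gene by gene, wild-type replicate 2 stood at 1.90 and homozygous replicate 1 at 2.30. At an unadjusted p under 0.05, 13 members were found (11 higher and 2 lower in homozygous hearts), which is 15.5% of the members against 25.0% of all tested genes. The median log2 change of the members was 0.12, and 75 of the 84 lay above 0. However, the median of all tested genes was 0.23, and only 10 members lay above it. The level of the members thus depended on the scale. After median-ratio scaling, which takes the typical gene as constant, the members' median was −0.13. Relative to all genes the median was −0.11 as deposited, but 0.12 after quantile normalization, 0.03 after correction for length and GC content, and near 0 without wild-type replicate 1 or with all low genes included. The changes of the members stayed close to each other, as their interquartile range was 0.11 log2 units, against 0.34 for all genes. The members also varied little between replicates, with a median within-group SD of 0.10 log2 units against 0.21. All tested genes include those near 1 TPM, whereas the members' median level was 747 TPM. Neither spread was compared with that of equally abundant genes.

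Homozygous values were higher than all wild-type values for 20 members (23.8%), where 22.3% of all tested genes showed this, and lower for 1 member (1.19%), where 2.38% did. Of the 20 members, 15 belong to the large and 5 to the small subunit, which have 51 and 35 members in all. The median log2 change was 0.12 for either subunit. Without wild-type replicate 1, heterozygous replicate 1 and homozygous replicate 3, which carry markers of other organs, 69 of the 84 members were higher without overlap and 4 lower, against 50.4% and 5.67% of all genes. With fewer libraries per group, groups separate more often in any gene. After median-ratio scaling 0 were higher, against 9.52% of all genes, and 3 lower, against 12.8%.

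**Figure D2:**
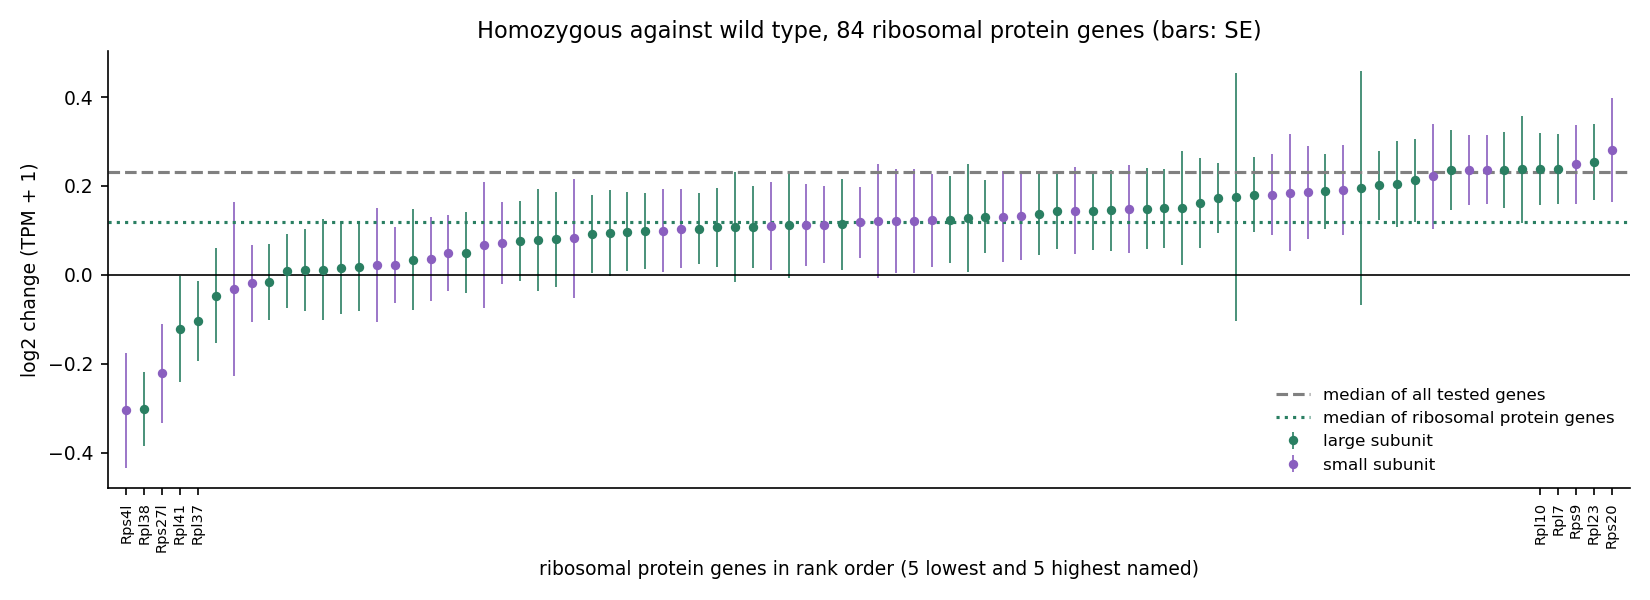
Homozygous minus wild-type difference on the log2(TPM + 1) scale for the 84 tested ribosomal protein genes in rank order, with SE from limma and the 5 lowest and 5 highest named. The members' median of 0.12 (dotted) lies below that of all tested genes at 0.23 (dashed), and *Rps4l*, *Rpl38* and *Rps27l* stand apart at the low end.

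*Rpl38* was the canonical gene with the lowest change. The protein is a small component of the large subunit, and mice lacking 1 copy of the gene have skeletal patterning defects. The gene lies on the plus strand of chromosome 11 (114668524 to 114672331, mm10, in GENCODE), and the RefSeq start shown above lies within it, downstream of the outermost GENCODE start. The libraries gave 1058, 944 and 1013 TPM for the wild-type hearts, 934, 893 and 888 for the heterozygotes and 770, 818 and 858 for the homozygotes. The 3 genotypes did not overlap in the deposited TPM, with the heterozygous libraries between the other two groups. Median-ratio scaling divides by 0.998 in homozygous replicate 3 and by 1.076 in heterozygous replicate 3. After it, homozygous replicate 3 lay above heterozygous replicate 3, so those 2 groups overlapped. Such a falling order without overlap was seen in 1 member, against 0.212% of all tested genes, and the rising order in 0 members, against 1.68%. The log2 change was −0.30 (SE 0.08, limma adjusted p = 0.110) between homozygous and wild-type hearts, and thus missed the threshold. The change kept its direction in 26 of 26 alternative settings, from −0.56 to −0.26. It passed the threshold in 3 of them, with a limma adjusted p of 0.00079 under default library weights, 0.0130 under gene-by-gene weights and 0.0461 after length and GC correction. A share of all ribosomal protein TPM is not altered by a constant factor per library, though quantile normalization and length and GC correction can alter it. By this share *Rpl38* took 1.43%, 1.45% and 1.57% in wild-type, 1.34%, 1.40% and 1.34% in heterozygous and 1.09%, 1.128% and 1.125% in homozygous hearts. The genotypes were separate on this share, as in the deposited TPM. Of its 31-base words 31.6% occur in other transcripts, most often in those of the pseudogene *Rpl38-ps2*.

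The other members at the low end were 2 paralogues and 2 canonical genes with short proteins. *Rps4l*, which GENCODE lists as a transcribed processed pseudogene related to *Rps4x*, gave 93.2, 108 and 109 TPM for the wild-type hearts, 91.6, 88.2 and 78.3 for the heterozygotes and 95.4, 85.4 and 71.5 for the homozygotes. All heterozygous values lay below the wild-type ones, while homozygous replicate 1 overlapped with them. Its log2 change was −0.30 (SE 0.13, limma adjusted p = 0.181) for homozygous against wild type, and the adjusted p was 0.0457 after median-ratio scaling and 0.0214 with default library weights. *Rps27l*, a paralogue of *Rps27* and a target of p53, gave 313, 303 and 255 TPM for the wild-type hearts, 292, 250 and 255 for the heterozygotes and 252, 231 and 263 for the homozygotes. The ranges overlapped through wild-type replicate 3, and the log2 change was −0.22 (SE 0.11, limma adjusted p = 0.234). Its share of ribosomal protein TPM was 0.394% to 0.465% in wild-type and 0.318% to 0.356% in homozygous hearts, without overlap. *Rpl41*, which encodes the shortest ribosomal protein, had a log2 difference of −0.12 (SE 0.12) and *Rpl37*, whose protein carries a zinc finger, by −0.10 (SE 0.09), with limma adjusted p-values of 0.514 and 0.460. *Rpl41* ranged from 1410 to 1708 TPM in wild-type and from 1305 to 1720 TPM in homozygous hearts, so the groups overlapped. With library weights *Rps27l* and *Rpl41* passed the threshold by both methods, with changes of −0.28 and −0.27 under the default and −0.29 and −0.26 gene by gene, and *Rpl37* by the default alone.

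**Figure D3:**
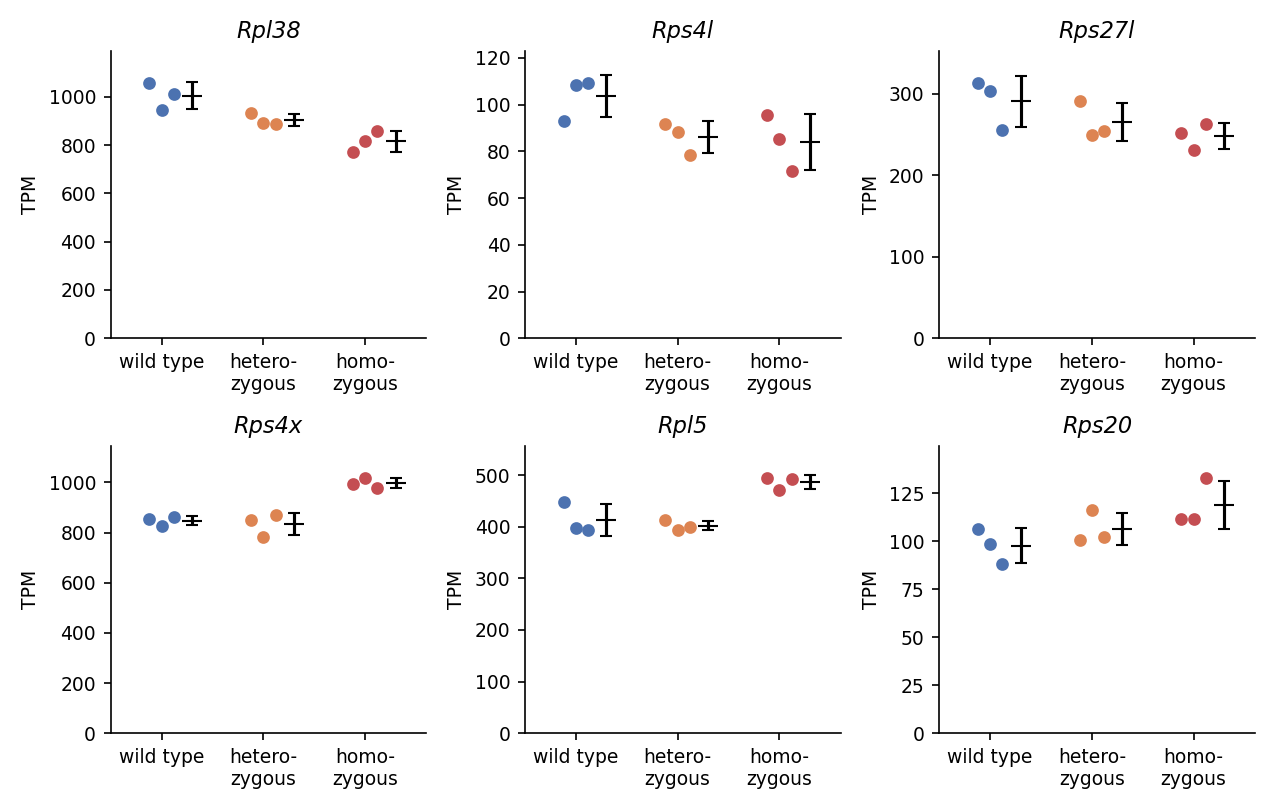
TPM of 6 ribosomal protein genes in each library, by genotype, with the mean ± SD of 3 libraries beside the points. *Rpl38* is highest in wild-type and lowest in homozygous hearts without overlap, *Rps4l* and *Rps27l* overlap between homozygous and wild-type hearts, and *Rps4x*, *Rpl5* and *Rps20* lie highest in the homozygous hearts, with 1 heterozygous library overlapping for *Rps20*.

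At the high end, *Rps20*, a protein of the small subunit's head, gave 106, 98.6 and 87.9 TPM for the wild-type hearts, 100, 116 and 102 for the heterozygotes and 111, 112 and 133 for the homozygotes. All homozygous values exceeded the wild-type ones, and heterozygous replicate 2 overlapped with them. Its log2 change was 0.28 (SE 0.12, limma adjusted p = 0.176). *Rpl23*, a large-subunit protein that can also bind MDM2, the negative regulator of p53, gave 449, 452 and 455 TPM for the wild-type hearts, 506, 458 and 489 for the heterozygotes and 553, 566 and 502 for the homozygotes. Both mutant groups lay above the closely spaced wild-type values, with a difference of 0.25 log2 units (SE 0.09, limma adjusted p = 0.132) in homozygous hearts and of 0.0010 after median-ratio scaling. *Rps9* of the small subunit ranged from 941 to 1064 TPM in wild-type and from 1094 to 1218 TPM in homozygous hearts, and *Rpl7* of the large subunit from 574 to 581 TPM and from 662 to 693 TPM. The log2 differences were 0.25 for *Rps9* and 0.24 each for *Rpl7* and *Rpl10*, with limma adjusted p-values from 0.131 to 0.142. None of these 3 overlapped between homozygous and wild-type hearts, and after median-ratio scaling all 3 lay just below 0. Under either kind of library weights *Rpl23*, *Rps9*, *Rpl7* and *Rpl10* passed the threshold, and *Rps20* under the default alone.

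Homozygous values exceeded those of all 6 other libraries in 14 members, 16.7% of those tested, against 8.98% of all tested genes. After median-ratio scaling 0 members did, as none then exceeded all wild-type values. The 14 members included *Rpl3*, *Rpl5*, *Rpl7*, *Rpl10*, *Rplp0*, *Rps3*, *Rps4x* and *Rps26*. *Rpl5*, which binds 5S rRNA and with *Rpl11* can hold MDM2, gave 449, 398 and 393 TPM for the wild-type hearts, 413, 394 and 400 for the heterozygotes and 495, 471 and 492 for the homozygotes. The lowest homozygous library exceeded the highest of the others, with a log2 change against wild type of 0.24 (SE 0.09, limma adjusted p = 0.145).

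The X-linked members were *Rps4x*, *Rpl10*, *Rpl36a* and *Rpl39*. *Rps4x*, a small-subunit protein gene, gave 853, 826 and 861 TPM for the wild-type hearts, 850, 784 and 870 for the heterozygotes and 995, 1019 and 978 for the homozygotes. *Rpl10*, whose protein joins the large subunit late in its assembly, stood at 1125, 985 and 1057, 1103, 1043 and 1082, and 1260, 1269 and 1202 TPM in the same order. Both lay highest in the homozygous hearts whether or not a library carried *Xist*. The log2 changes against wild type were 0.24 for both (limma adjusted p = 0.131 and 0.134), and 0.09 for *Rpl36a* and 0.08 for *Rpl39* (adjusted p = 0.533 and 0.632), whose ranges overlapped.

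The 3 comparisons share libraries, so their values are given side by side and not as independent results. Between homozygous and heterozygous hearts, which differ by 1 mutant allele, 0 members were called by limma, against 0.0439% of all tested genes, with a lowest adjusted p of 0.563 for *Rps4x*. With default library weights *Rpl5* and *Rps4x* passed, both higher in homozygous hearts, as did 234 of all genes, and with gene-by-gene weights 0 members and 43 of all genes did. At an unadjusted p under 0.05, 11 members were found, all higher in homozygous hearts, which is 13.1% against 7.15% of all genes. The members' median log2 change was 0.13, above the median of 0.08 over all genes, and 64 of 84 members lay above that median. This order turned without homozygous replicate 3, where the members' median was 0.03 below that of all genes, and with library weights, where it was 0.03 (default) or 0.02 (gene by gene) below. Homozygous values were higher without overlap for 25 members (29.8%) against 12.0% of all genes, and lower for *Rpl38* alone against 3.85%. Of the 25, 13 belong to the large and 12 to the small subunit. After median-ratio scaling 7 members were higher without overlap, against 7.23% of all genes.

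The highest changes in this comparison belonged to *Rps3a2* (0.40, SE 0.20), a processed pseudogene at 2.19 to 5.51 TPM with 92.9% of its words in other transcripts, and to the small-subunit genes *Rps27* (0.32, SE 0.13) and *Rps14* (0.29, SE 0.12). Their limma adjusted p-values were 0.729, 0.688 and 0.689. *Rps27* was at 2148, 1644 and 1889 TPM across heterozygous and 2137, 2202 and 2755 TPM across homozygous hearts, and the groups overlapped at 1 heterozygous library. The lowest changes were those of *Rpl38* (−0.15, SE 0.08), *Rps27l* (−0.09, SE 0.11) and *Rps4l* (−0.04, SE 0.13), with limma adjusted p-values of 0.762, 0.875 and 0.965. For *Rps4l* the direction turned with library weights and without heterozygous replicate 1 or homozygous replicate 3.

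Between heterozygous and wild-type hearts, 0 members were called by limma, against 0.0146% of all tested genes, and 0 had an unadjusted p under 0.05, against 6.87%. The lowest adjusted p was 0.672. With default library weights *Rpl7a*, *Rpl7l1* and *Rps4l* passed (2 higher and 1 lower), where 4425 of all genes did, and with gene-by-gene weights 0 members and 4 of all genes did. The members' median log2 change was −0.02, while that of all genes was 0.15, and all 84 members lay below it. The members' median was 0.04 without wild-type replicate 1 and with default library weights, and it remained below that of all genes in each setting tried, by 0.03 to 0.29. Heterozygous values were higher without overlap for *Rpl23* and *Rps2* (2.38%), against 12.8% of all genes. They were lower for *Rpl38*, *Rps28*, *Rps3a2* and *Rps4l* (4.76%), against 1.03%, and for 15 members without the 3 libraries that carry markers of other organs, against 5.81%. The lowest values were −0.43 (SE 0.20) for *Rps3a2*, −0.27 (SE 0.13) for *Rps4l* and −0.15 (SE 0.08) for *Rpl38*, each with a limma adjusted p of 0.672. The highest changes were those of *Rpl7l1* (0.14), *Rps20* (0.12) and *Rpl23* (0.10), which were below 0 after median-ratio scaling.

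Across single libraries the members shifted together. Relative to each gene's mean, the members' median was highest in homozygous replicate 3 at 0.14 log2 units, where 74 of 84 members lay above their mean, and next in wild-type replicate 1 at 0.08, where 70 did. It was lowest in heterozygous replicate 2 at −0.12, where 10 of 84 members lay above. Homozygous replicate 3 and wild-type replicate 1 are the libraries with thymocyte and with airway and lung markers, respectively, and the medians of all tested genes in them were −0.02 and −0.23. In heterozygous replicate 1, with airway, lung and liver markers, the medians were 0.03 for the members and 0.02 for all genes. There 57 of 84 members lay above their mean, and the members' median was the highest of the 3 heterozygous libraries. Within each genotype the library with markers of other organs thus had the highest members' median, and the cause was not tested. Wild-type replicate 2 and heterozygous replicate 2, where these markers were low, also had medians of all genes below 0, at −0.18 and −0.05. Mitochondrially encoded genes took 27.2% and 27.8% of TPM in wild-type replicates 1 and 2. They took 27.0% in heterozygous replicate 2 and 27.8% in homozygous replicate 3. In the other libraries, whose medians of all genes lay above 0, they took 22.3% to 24.5%. The part of this share in the medians was not tested. In homozygous replicates 1 and 2, whose marker sums for those organs were at most 77.8 TPM, the members' medians were 0.05 and 0.07 and those of all genes 0.13 and 0.17.

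**Figure D4:**
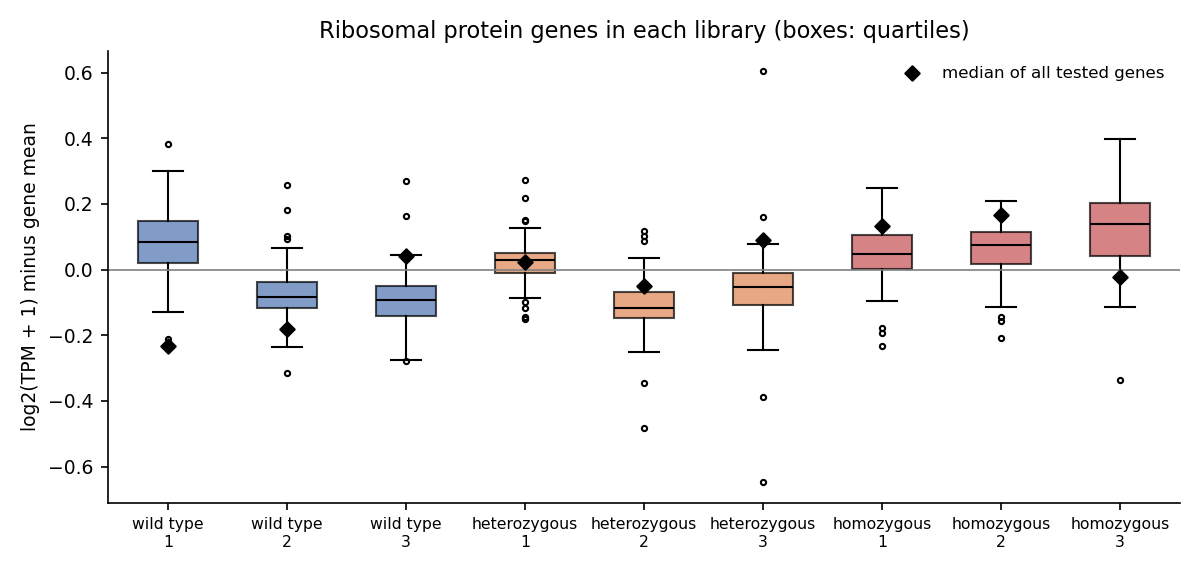
Log2(TPM + 1) of the 84 tested ribosomal protein genes minus each gene's mean over 9 libraries, by library. Boxes show quartiles with the median, circles lie beyond the whiskers, and diamonds are the median of all tested genes; the members are highest in homozygous replicate 3 (0.14) and wild-type replicate 1 (0.08), where the diamonds lie below 0.

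The difference from wild type was also set against the coding length of each gene. Over the 77 canonical genes, whose coding lengths ran from 75 to 1257 bases, the rank correlation of coding length with the log2 change from wild-type to homozygous hearts was 0.43 (Pearson r with log2 length 0.51). The 27 genes with coding lengths up to 405 bases had a median change of 0.08, and the 26 with at least 576 bases one of 0.15. The longest coding sequences, those of *Rpl4* and *Rpl3*, went with values of 0.19 and 0.17, and the shortest, that of *Rpl41*, with −0.12. The rank correlation was 0.29 for homozygous against heterozygous and 0.32 for heterozygous against wild-type hearts. Without the 3 libraries that carry markers of other organs it was 0.44, 0.38 and 0.17 for the 3 comparisons. Over 12300 tested genes with a coding length the corresponding values were 0.25, 0.05 and 0.31. These are descriptions across genes measured in the same libraries, and genes are not independent replicates. The rank correlation with GC content was −0.17, −0.31 and 0.04 for the 3 comparisons in the same order, so between homozygous and heterozygous hearts it was about as large as that with coding length. With the share of words found in other transcripts it was −0.12, −0.17 and 0.10.

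**Figure D5:**
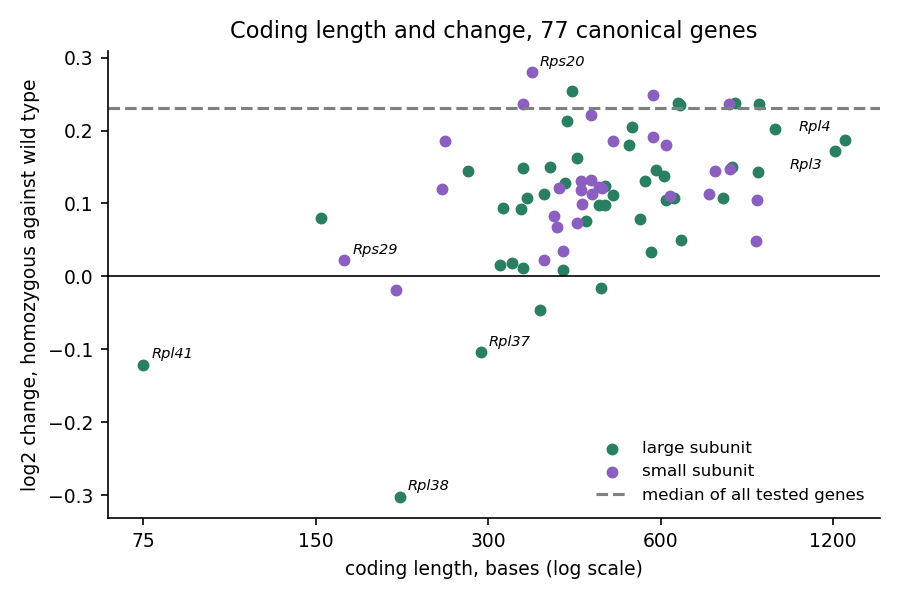
Homozygous minus wild-type difference in log2(TPM + 1) against coding length (log scale) for the 77 canonical ribosomal protein genes. Genes up to 405 bases have a median of 0.08 and those from 576 bases one of 0.15, with *Rpl41*, *Rpl38* and *Rpl37* at the lower left.

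The paralogues were set beside the genes they resemble. *Rpl3l*, which takes the place of *Rpl3* in mature striated muscle, was near the detection limit in these hearts at 1.47 to 4.25 TPM, while *Rpl3* was at 666 to 794 TPM. *Rpl22l1* was at 106 to 137 TPM against 368 to 536 TPM for *Rpl22*, and *Rpl7l1*, an assembly factor related to *Rpl7*, at 29.5 to 38.4 TPM against 574 to 693 TPM. *Rps27l* was at 231 to 313 TPM against 1644 to 2755 TPM for *Rps27*. *Rpl39l*, a paralogue known from testis, did not exceed 1.21 TPM. From wild-type to homozygous hearts the log2 changes were 0.20 (SE 0.26) for *Rpl3l*, 0.01 (SE 0.11) for *Rpl22l1* and 0.24 (SE 0.12) for *Rpl7l1*, with limma adjusted p-values of 0.636, 0.955 and 0.238. Their parents *Rpl3*, *Rpl22* and *Rpl7* were at 0.17, 0.15 and 0.24, and *Rps27* at 0.19 where *Rps27l* was at −0.22. The differences between paralogue and parent were not tested.

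Of the ribosomal proteins whose symbols the rule does not cover, *Rack1*, a scaffold on the small subunit, gave 486, 460 and 452 TPM for the wild-type hearts, 495, 435 and 490 for the heterozygotes and 532, 546 and 553 for the homozygotes. Its homozygous values lay above all others in the deposited TPM, with a log2 change against wild type of 0.22 (SE 0.09, limma adjusted p = 0.156). After median-ratio scaling, which divides wild-type replicate 1 by 0.841 and homozygous replicate 1 by 1.115, the *Rack1* values of these genotypes overlapped. *Fau*, a fusion with a ubiquitin-like protein, was at 0.08 and *Rpl36al* at −0.11, and 0 of these 3 genes were called in any comparison. All homozygous values of *Rpl36al* lay below the wild-type ones, as in 2.38% of all tested genes.

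Further lists of the translation machinery gave 0 calls by limma in each of the 3 comparisons. Of 18 elongation factors and other TOP mRNAs, 17 lay above 0 in homozygous against wild-type hearts, as did 81.7% of all tested genes. Their median was 0.18, with 7 at an unadjusted p under 0.05, where 25.0% of all genes were. *Eef1a1*, the elongation factor that brings aminoacyl-tRNA to the ribosome, gave 3463, 3424 and 3594 TPM for the wild-type hearts, 3761, 3555 and 3747 for the heterozygotes and 4473, 4898 and 3937 for the homozygotes. Homozygous values exceeded all others, with a change of 0.34 log2 units (SE 0.09, limma adjusted p = 0.106). *Eif4b*, which assists the helicase of translation initiation, was at 0.47 (SE 0.13, limma adjusted p = 0.113), while *Eef1g* and *Tpt1* were at 0.07 and −0.02.

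The median log2 change was 0.20 over 34 ribosome biogenesis genes, of which 33 lay above 0 (81.7% of all genes did), led by the nucleolar assembly genes *Mdn1* and *Nol6* at 0.54 each and with *Gar1* (0.02) and *Bysl* (−0.07) lowest. It was 0.32 over 19 genes of RNA polymerase I and rDNA transcription, with *Taf1a* at 0.69 and *Taf1c* at 0.67, both subunits of the promoter selectivity factor, and *Polr2l* at −0.13. *Polr1e*, a polymerase I subunit, gave 26.1, 33.6 and 29.6 TPM for the wild-type hearts, 24.4, 29.8 and 34.3 for the heterozygotes and 21.0, 19.9 and 19.7 for the homozygotes. Its homozygous values lay below all others, with a difference of −0.53 log2 units (SE 0.14, limma adjusted p = 0.109). The median was 0.26 over 21 regulators of ribosomal protein synthesis, from −0.05 for *Eif4ebp1*, a translation repressor downstream of mTOR, and 0.01 for *Rheb* to 0.54 for *Sp1* and 0.60 for *Mlst8*. Over 18 genes of p53 and nucleolar stress it was 0.15, with *Trp53inp1* at 1.199 and *Mdm4* at 0.67, and with *Gdf15* at −0.22 and *Btg2* at −1.02. *Trp53inp1* was at 26.8 TPM in homozygous replicate 3, the library with thymocyte markers, and at 3.92 to 9.88 TPM in the other 8. *Btg2* was at 62.4 and 66.5 TPM in wild-type replicates 1 and 2 and at 15.1 to 29.8 TPM in the other libraries. Wild-type replicate 3, at 16.2 TPM, lay within the homozygous range. All these medians are to be read beside the 0.23 of all genes.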

How the data were processed

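The authors captured mRNA from E18.5 hearts, trimmed reads with Trim Galore, aligned them to mm10 with STAR and quantified genes with RSEM. The deposited table holds TPM per gene and library for 9 libraries, grouped by title. TPM keeps no depth, so counting error is unknown and the 3 libraries per genotype alone give the precision. Which gene annotation was used, and whether strand was, is not given in the sources used here.

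Of the 24597 symbols, 26 turned into dates were left out. The 13682 genes averaging 1 TPM or more were tested on log2(TPM + 1), a scale that understates changes of low genes, with limma 3.58.1 in R 4.3.3, with the 3 genotypes in 1 fit and a mean-variance trend. Tests were two-sided, with Benjamini-Hochberg adjustment over all tested genes and a threshold of 0.05. Coordinates and lengths came from GENCODE M21 and promoters from RefSeq. The procedure was tested on simulated data. Members and lists were chosen with earlier results of these data known.

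Genes were named as the 5 highest and 5 lowest members in homozygous against wild-type hearts and 3 and 3 in the others, the 3 most and 3 least abundant, the paralogues with their parents, the X-linked members, *Rpl38* (named in a list of the study, so not an independent choice) and *Ctcf*, and the 2 highest and 2 lowest genes of each further list. *Rpl5*, *Rps2* and *Rps28* and the members counted in small groups were named after their values were seen. Alternatives changed the pseudocount, filter, scaling, library weights, prior, covariates and libraries. Library weights were planned with the default of limma (REML); as it stopped with a convergence warning, gene-by-gene weights were added after its counts had been seen, and both are given. Values of some genes are not reported here.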

Additional observations from a re-analysis of the deposited data

How the results depend on the processing

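Calls among the members and their median changes were recomputed in 26 further settings. The 0 calls of homozygous against wild type became 1 after median-ratio scaling (*Rps4l*), 1 after quantile normalization (*Rpl23*), 1 after length and GC correction (*Rpl38*), 46 with the default library weights of limma (40 higher) and 18 with gene-by-gene weights (15 higher). The default weights also gave 2 calls in homozygous against heterozygous and 3 in heterozygous against wild type, where every other setting gave 0. The default (REML) was the planned setting and stopped with a convergence warning. Gene-by-gene weights were added after the counts of the default had been seen. The median change of homozygous against wild type was −0.13 after median-ratio scaling and 0.025 after length and GC correction, and that of heterozygous against wild type was −0.19 after median-ratio scaling. The shares of TPM were 9.38%, 8.96% and 9.75% in wild-type, heterozygous and homozygous hearts when mitochondrially encoded and haemoglobin genes were left out of the total. Leaving out 1 library at a time gave 0 calls in each comparison, medians of 0.09 to 0.18 (homozygous against wild type), 0.10 to 0.16 (homozygous against heterozygous) and −0.06 to 0.04 (heterozygous against wild type), and shares of 6.50% to 6.96%, 6.52% to 6.81% and 7.17% to 7.45%. Directions turned after median-ratio scaling for *Rpl10* (−0.015), *Rpl7* (−0.015) and *Rps9* (−0.0048) in homozygous against wild type and for *Rpl23* (−0.069), *Rps20* (−0.041) and *Rpl7l1* (−0.022) in heterozygous against wild type. *Rps20* also turned after length and GC correction there (−0.033). *Rps4l* turned in homozygous against heterozygous with default (0.085) and gene-by-gene (0.062) library weights, without heterozygous replicate 1 (0.0072), without homozygous replicate 3 (0.072) and without the 3 libraries that carry markers of other organs (0.12). The cause of these shifts was not tested.

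The labels number the replicates, but whether the numbers mark pairs or batches of hearts is not known. Of 9 same-numbered pairs across genotypes, 2 had deviations correlated above 0.1 (−0.03 to 0.36 over the 9). These 2, wild-type with heterozygous replicate 1 (0.36) and replicate 3 (0.30), were the highest of all pairs across genotypes. In 6 of 9 libraries the best correlation was with their own number. With the replicate number as a block, 0 members were called in each comparison, and 17, 1 and 1 of all genes were called against 46, 6 and 2 without it.

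With TPM alone, the read depth is unknown. The median SE of a member's log2 change was 0.09, and changes of the size seen here did not pass the adjustment over 13682 genes without library weights, other than the single calls above. The alternatives for overlap counts, medians relative to all genes and correlations were chosen after the data were seen.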
